A study of Mus musculus with 2 samples.

Results

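The genes described here are those of the epidermal differentiation complex, a cluster on mouse chromosome 3 that encodes proteins of the outer layers of stratified epithelia. They were chosen by gene symbol from the platform annotation of 2 Affymetrix mouse expression arrays. A gene was a member where a probe set named it alone and its symbol started with Lce, Sprr or S100a and a digit, or was Flg, Flg2, Lor, Ivl, Crct1, Rptn, Hrnr, Tchh, Tchhl1 or Crnn. This gave 55 probe sets of 44 genes, out of 18193 genes with a single-gene probe set, and all 44 lie on chromosome 3. No single-gene probe set was found for Flg2 or Crnn. The group was proposed with the values of these arrays known, so its values are given as a description, without a test.

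The study asked which cortical genes differ without Sox11, a transcription factor of developing neurons. Per the labels, the cerebral cortices of 1 Sox11(+/+) embryo, called wild type, and 1 Sox11(-/-) littermate gave the RNA at E17.5, an embryonic day late in gestation, both from a cross of heterozygous parents on a mixed C57BL/6 and 129 background. The labels name no promoter, Cre or pool, and the cross makes the null allele a germline one, not limited to the cortex. Each genotype had 1 array, so every difference below is between 2 libraries, with no replicate check.

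The cluster is a set of neighbouring families that are switched on as a keratinocyte leaves the basal layer. Involucrin, loricrin, the small proline-rich (Sprr) proteins and the late cornified envelope (Lce) proteins are crosslinked by transglutaminases into the cornified envelope, the tough shell of a dead surface cell. The fused-type S100 proteins, among them filaggrin and trichohyalin, join an S100 calcium-binding domain to long repeats and bundle keratin filaments or fill the cells of the hair sheath. The S100a genes encode small calcium-binding proteins, many of which are made in cells outside epithelia too. Loricrin, filaggrin and the Lce proteins are not known as products of cortical neurons or glia.

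Signals are linear intensities, and differences are log2 signals of the null library minus wild type, after the null array was shifted to a median difference of 0. Signals below the 25th percentile of an array were raised to it (52.9 for wild type, 52.5 for null). A gene counted as measured where its brightest probe set reached the median of at least 1 array (177.5 and 177.4), which 12390 genes did. The targeted gene kept 16.4% to 47.8% of its wild-type signal over its 6 probe sets, and no source used here says which of them lie in the deleted part. The beta-actin control's 3' over 5' ratio was 1.78 in the wild-type library and 1.16 in the null one, that of Gapdh was 0.922 and 0.816, and their part in the differences was not tested. Of 8 listed markers of cortical neurons 6 had a single-gene probe set, all 6 were measured, and their summed signal was 7618 in the wild-type library and 7017 in the null one. The brightest were Neurod6 (3019 and 2723, -0.13) and Bcl11b (2394 and 2204, -0.100), while Emx1 (219 and 272, 0.33) and Fezf2 (162 and 217, 0.44) were above 0. Fezf2 was measured through its higher null signal alone. All 8 listed markers of basal keratinocytes were above the median of both arrays as well, although the labels name cortex alone. In RNA of a whole tissue piece, fewer cells of a type and less RNA per cell cannot be told apart. Each genotype was 1 sample, so a difference in the tissue that each sample held cannot be told apart from genotype either.

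Of the 44 members, 35 were measured: 30 were above the median of both arrays, 5 only of the wild-type array and none only of the null array. Since those 5 entered through their higher wild-type signal, counts over the measured members lean towards lower values. Of the 35, 20 were at least 1.5-fold lower in the null library, beside 3.24% of all measured genes. The share at least 2-fold lower was 12 of 35, beside 0.985%. S100a8 was the single member at least 1.5-fold higher (all genes 3.07%), and it was also beyond 2-fold (0.573%). The median difference of the measured members was -0.70, against 0 for all measured genes by construction. Over the 30 members above the median of both arrays, 15 were lower by 1.5-fold or more (1.91% of the 11647 genes with the same filter), 8 of these by 2-fold or more (0.498%), and the median was -0.61. Members made up 12 of the 122 measured genes that were at least 2-fold lower.

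The subfamilies differed in size of difference. The fused-type genes had a median of -1.96 (4 of 5 measured, SD over genes 0.22), and the Lce3 genes one of -1.77 (4 of 4, SD 1.18). The Lce1 genes were at -0.71 (9 of 11, SD 0.35) and the Sprr genes at -0.68 (4 of 9, SD 0.73). The S100a genes were at -0.12 (11 of 12, SD 0.83). Lce3a, Lce3c and Sprr2d were measured through their wild-type signal alone. Over the genes above the median of both arrays, the Lce3 median was -0.89 (2 genes), near that of Lce1, and the Sprr median -0.43 (3 genes), while those of the fused-type, Lce1 and S100a genes were -1.96, -0.71 and -0.11. With no filter the Sprr median was -0.42 over 9 genes. These SDs are over genes of a family on the same 2 arrays and do not stand for replicate error, so the order of the families was not tested.

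**Figure D1:**
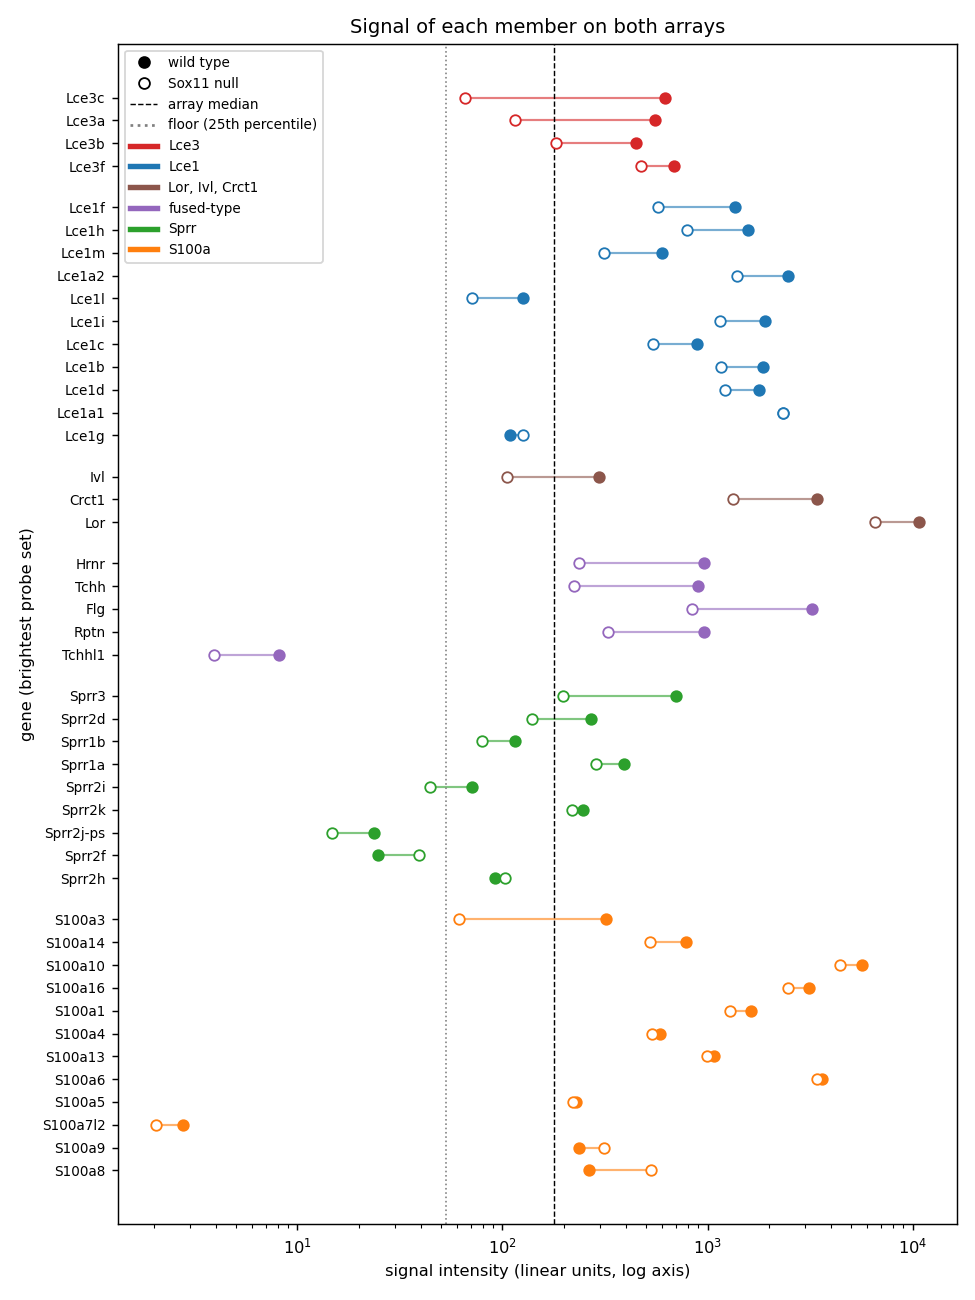
Signal intensity (linear units on a log axis) of each of the 44 members by its brightest probe set, grouped by subfamily, with wild type as filled and Sox11 null as open points. The dashed line is the wild-type array median (177.5) and the dotted line the wild-type floor (52.9). The open points lie to the left for most Lce and fused-type genes, and to the right for S100a8, S100a9 and the dim Lce1g, Sprr2f and Sprr2h.

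The late cornified envelope genes are short, similar genes whose products are added to the envelope late in its assembly. RefSeq promoter sequences (GRCm38.p6) were at hand for 39 of the 44 members, with none for Crct1, Lce1f, S100a10, S100a14 and Sprr2j-ps. The 250 bases before the start are shown for the Lce3 genes with the largest differences, for a pair of Lce1 genes, with Lce1b between them, that differed from each other, and for 2 fused-type genes, 5′ to 3′ on the gene's strand. Capitals mark TATAAA and TGANTCA on either strand, and TAAAA on the gene's strand between 40 and 16 bases before the start. The last letters were added after the Lce sequences had been read, and the Lce3a window holds no match by these rules.
Lce3c (chr3:92944236-92944485, + strand): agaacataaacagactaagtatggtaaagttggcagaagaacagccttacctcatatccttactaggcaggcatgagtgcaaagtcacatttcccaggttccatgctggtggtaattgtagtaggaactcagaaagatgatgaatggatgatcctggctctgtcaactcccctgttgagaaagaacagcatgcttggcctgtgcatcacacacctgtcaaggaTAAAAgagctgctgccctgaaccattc
Lce3a (chr3:92926231-92926480, - strand): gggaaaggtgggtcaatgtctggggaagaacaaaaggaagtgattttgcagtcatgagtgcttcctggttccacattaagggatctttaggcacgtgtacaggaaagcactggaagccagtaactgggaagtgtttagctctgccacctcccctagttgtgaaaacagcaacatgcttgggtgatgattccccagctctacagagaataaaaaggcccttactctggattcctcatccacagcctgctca
Lce1a1 (chr3:92648308-92648557, - strand): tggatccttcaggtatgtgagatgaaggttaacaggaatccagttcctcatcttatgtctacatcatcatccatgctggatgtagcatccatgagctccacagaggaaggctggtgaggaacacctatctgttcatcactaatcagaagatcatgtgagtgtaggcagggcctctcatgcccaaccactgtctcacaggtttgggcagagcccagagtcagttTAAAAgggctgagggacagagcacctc
Lce1a2 (chr3:92670316-92670565, - strand): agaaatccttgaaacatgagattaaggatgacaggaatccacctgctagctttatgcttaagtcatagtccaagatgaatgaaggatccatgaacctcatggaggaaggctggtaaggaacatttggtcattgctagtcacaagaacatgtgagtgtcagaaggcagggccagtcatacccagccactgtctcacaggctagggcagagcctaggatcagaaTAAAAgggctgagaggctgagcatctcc
Flg (chr3:93273296-93273545, + strand): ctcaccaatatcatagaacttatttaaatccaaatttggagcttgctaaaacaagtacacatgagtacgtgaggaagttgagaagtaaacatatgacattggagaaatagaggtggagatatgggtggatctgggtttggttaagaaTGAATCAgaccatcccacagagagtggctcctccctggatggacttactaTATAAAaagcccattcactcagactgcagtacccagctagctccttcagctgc
Hrnr (chr3:93319499-93319748, + strand): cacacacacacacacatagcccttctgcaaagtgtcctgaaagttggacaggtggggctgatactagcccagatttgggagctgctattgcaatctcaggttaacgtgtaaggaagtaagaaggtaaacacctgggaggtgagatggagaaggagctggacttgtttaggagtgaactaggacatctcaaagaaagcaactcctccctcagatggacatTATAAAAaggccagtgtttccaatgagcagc

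Among these windows the families differ in their letters. TAAAA stood between 40 and 16 bases before the start in 10 of 10 Lce1 windows and 3 of 4 Lce3 windows, in 4 of 8 Sprr, 3 of 5 fused-type and 1 of 14 S100a windows, and in 3.40% of 32851 windows of all genes. TATAAA, the textbook TATA box, was found anywhere in the 250 bases and on either strand in 8 of 8 Sprr windows, 2 of 10 Lce1 windows and none of 4 Lce3 windows, beside 12.4% of all windows. TGANTCA, a looser form of the AP-1 letters with any base in the middle, was in 7 of 8 Sprr and 3 of 5 fused-type windows. It was in none of the 14 Lce windows and in 6.75% of all windows. The match in the Flg window reads TGAATCA. The grainyhead letters AACCGGTT were in none of 43 member windows and in 0.116% of all windows. These are matches of letters and not sites, TATAAA and TAAAA overlap in windows such as that of Hrnr, and S100a3 and S100a16 have several windows each. Pairs of Lce1 windows were 47.7% to 85.6% identical (median 63.5% of aligned columns), and pairs of Lce3 windows 50.9% to 62.6%.

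The Lce3 genes, which in skin are known for their induction on barrier damage, held the largest difference of the cluster with the floor used here. Lce3c was at 619 in the wild-type library and 65.4 in the null one, a difference of -3.22 or 9.34-fold lower. Of the 12390 measured genes, 1 other was as low. Lce3a was at 557 and 115 (-2.26, 4.78-fold lower) and Lce3b at 448 and 183 (-1.27, 2.42-fold lower). Lce3f, at the end of the Lce3 row, was at 688 and 476 (-0.51, 1.42-fold lower). In wild type these 4 genes lay between 448 and 688, and in the null library between 65.4 and 476. The null signals of Lce3a and Lce3c were under the array median, where a floor at that median gave -1.63 and -1.78, smaller than the differences of Flg, Hrnr and Tchh. Each Lce3 gene had 1 probe set, and those of Lce3b and Lce3c are of the _x_at type, which the maker marks as able to bind related sequences.

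The Lce1 genes, the larger group of the envelope's late components in mouse skin, had differences from -1.23 to 0.026. Of the 9 measured genes, 8 were below 0, 7 were lower by 1.5-fold or more and 1 of these by 2-fold or more. All 9 were above the median of both arrays. Of all genes with this filter, 1.91% were lower by 1.5-fold or more and 0.498% by 2-fold or more. Lce1f had the largest difference with 1363 in the wild-type library and 574 in the null one (-1.23, 2.34-fold lower). Its second, dim probe set gave 121 and 42.2 (-1.19), the null signal being at the floor. Lce1h (1582 and 794, -0.97) and Lce1m (597 and 311, -0.92) came next. Lce1a2 was at 2478 and 1394 (-0.81), Lce1i at 1903 and 1150 (-0.71), Lce1c at 892 and 542 (-0.70) and Lce1b at 1856 and 1164 (-0.65). Lce1d was at 1783 and 1222 (-0.53), inside 1.5-fold.

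Lce1a1 stood apart from the other measured Lce1 genes. Its signal was 2330 in the wild-type library and 2341 in the null one (0.026), and its _x_at probe set gave 2531 and 2116 (-0.24). Both values were nearer to 0 than that of any other measured Lce1 gene. Its neighbour but one, Lce1a2, has a window 73.8% identical in the 250 bases shown above. Near-identical members of this family can share probes, so a probe set named for 1 gene need not report that gene alone. Lce1g (108 and 126) and Lce1l (126 and 71.1) were under the median of both arrays and were not counted as measured.

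Loricrin, involucrin and Crct1 are single-copy members set between these families. Lor, the most abundant protein of the envelope in mouse skin, had 3 probe sets, all lower in the null library. They gave 10784 and 6581 (-0.69), 10124 and 4838 (-1.05) and 354 and 212 (-0.72). Crct1, a cysteine-rich gene beside the Lce3 row, was at 3425 and 1332 (-1.34, 2.54-fold lower). Ivl, an early scaffold of the envelope, was at 295 and 105 (-1.47, 2.76-fold lower). The null signal of Ivl was under the array median, and a floor there gave -0.72. The other Ivl probe set was at the floor on both arrays (7.19 and 7.60) and gives no direction.

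The 4 measured fused-type genes were all at least 2-fold lower, beside 0.985% of all measured genes. Flg encodes profilaggrin, whose repeats bundle keratin filaments and are broken down to natural moisturising factor, and it was at 3224 in the wild-type library and 836 in the null one (-1.93, 3.80-fold lower). Hrnr, hornerin, was at 956 and 236 (-2.00). Tchh, trichohyalin of the inner root sheath of the hair follicle, was at 895 and 223 (-1.98, 3.95-fold lower). Rptn, repetin, was at 962 and 326 (-1.54, 2.91-fold lower). All 4 were above the median of both arrays, so none depended on the floor. The other Rptn probe sets, under the median of both arrays, gave 124 and 61.8 (-0.99) and 85.4 and 57.4 (-0.55), and the mean over all 3 was -1.07. Tchhl1 was at the floor on both arrays (8.17 and 3.92), so no difference is given for it.

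The Sprr genes, whose products bridge other envelope proteins, were mostly dim, and 5 of 9 were not measured. Sprr3, a gene of oral and oesophageal epithelium, was at 705 in the wild-type library and 197 in the null one (-1.82, 3.53-fold lower). Sprr2d was at 270 and 139 (-0.93, 1.91-fold lower), and only its wild-type signal was above the median. Sprr1a, which is also induced in injured neurons, was at 393 and 287 (-0.43) and Sprr2k at 247 and 219 (-0.15). These latter genes were within 1.5-fold. Sprr1b (115 and 79.3), Sprr2i (71.1 and 44.3) and Sprr2h (91.4 and 103) were under both medians, and Sprr2f and the pseudogene Sprr2j-ps were at the floor on both arrays.

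The S100a genes split from the envelope genes. Of 11 measured members, 9 were within 1.5-fold, 1 was lower and 1 higher. S100a3, a protein of the hair cuticle, was at 320 in the wild-type library and 61.3 in the null one (-2.37, 5.15-fold lower), but -0.83 with a floor at the array median, since its null signal was near the floor. S100a14, an epithelial member, was at 789 and 527 (-0.56, 1.48-fold lower), just inside 1.5-fold. S100a16 was at 3136 and 2467 (-0.33), and -0.45 by its other probe set.

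The other S100a members, several of them made widely outside epithelia, were within 1.5-fold. S100a6, found in fibroblasts, glia and many other cells, was at 3610 and 3411 (-0.062). S100a10, the partner of annexin A2, was at 5656 and 4412 (-0.34), although its second bright probe set gave 4813 and 4660 (-0.027). S100a4, a gene of fibroblasts and motile cells, was at 590 and 535 (-0.12), S100a13 at 1080 and 999 (-0.093) and S100a5 at 228 and 221 (-0.024). S100a1, known from heart and skeletal muscle, was at 1631 and 1293 (-0.32), and -0.42 by its other probe set. Annexin A2 (Anxa2) itself was at 6883 and 7172 (0.079), and its partner Ahnak at 7965 and 7188 (-0.13). Of the list of S100 genes outside the cluster and S100 partners, all 5 measured genes were within 1.5-fold (median -0.13).

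S100a8 and S100a9, the subunits of calprotectin, were 2 of the 3 measured members with a difference above 0, the third being Lce1a1. S100a8 was at 264 in the wild-type library and 533 in the null one (1.03, 2.04-fold higher), and S100a9 at 235 and 314 (0.44, 1.36-fold higher). Calprotectin is abundant in neutrophils and is induced in stressed epidermis. Of 10 listed neutrophil genes 8 had a single-gene probe set and 3 were measured. Lcn2 was at 171 and 340 (1.01), Ltf at 447 and 499 (0.18) and Csf3r at 179 and 135 (-0.38). Lcn2 was measured through its higher null signal alone, and Csf3r through its higher wild-type signal alone. The granule genes Mpo (74.3 and 62.9) and Ngp (144 and 143) were under both medians, Camp was at the floor on both arrays, and Elane was at the floor in wild type (12.9) and at 113 in the null library. The summed signal of the 8 genes was 1117 in the wild-type library and 1361 in the null one, and its part in the S100a8 and S100a9 values was not tested.

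**Figure D2:**
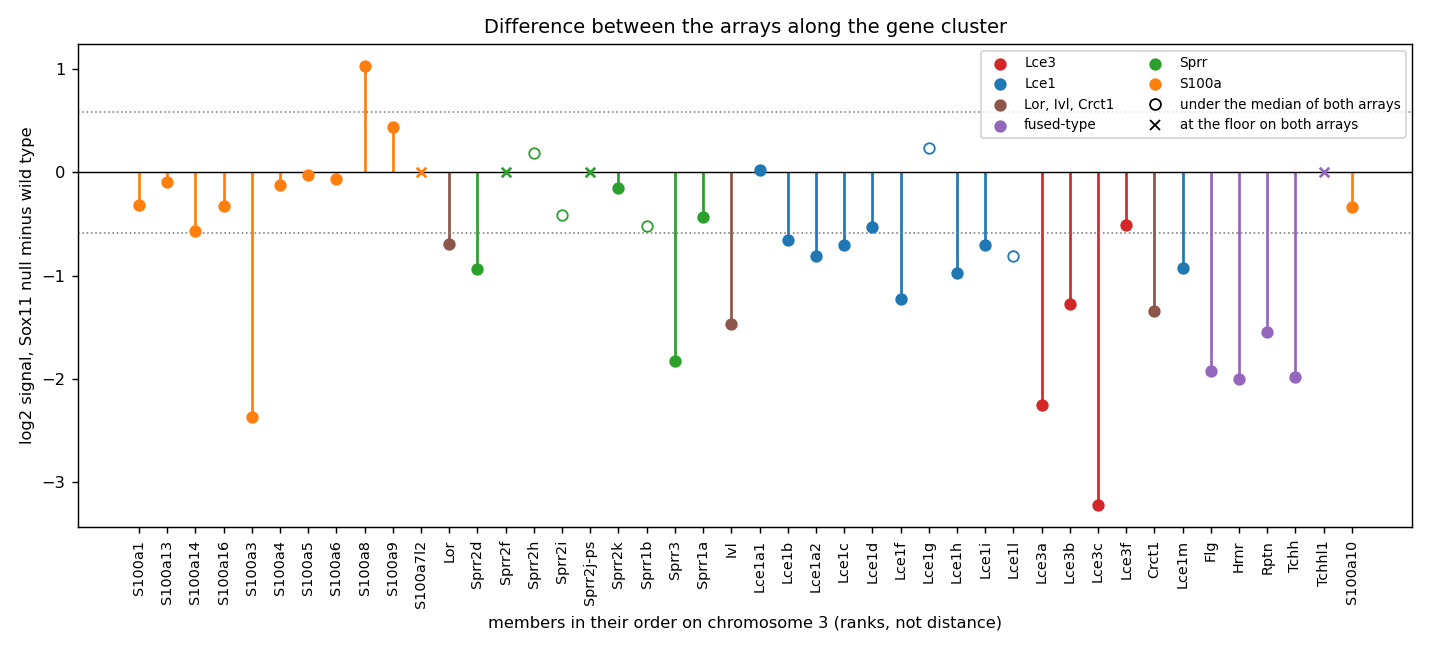
Log2 signal of Sox11 null minus wild type for the 44 members in their order on chromosome 3, as ranks. Filled points were measured, open points were under the median of both arrays, crosses were at the floor on both, and dotted lines mark 1.5-fold. The measured S100a genes at either end lie within 1.5-fold apart from S100a3 and S100a8, and the 4 measured fused-type genes lie between -2.00 and -1.54.

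Along the chromosome, in the gene order of GRCm38.p6, the cluster runs from S100a1 to S100a10 with 70 protein-coding genes, 60 of them of these families and 43 of them members, beside the pseudogene. The 10 measured S100a genes at the S100a1 end had a median difference of -0.11. Then came Lor (-0.69), the Sprr row (-0.68 over 4, or -0.43 over 3 above both medians), Ivl (-1.47) and the first 8 measured Lce1 genes (-0.70). The Lce3 row followed (-1.77 over 4, or -0.89 over the 2 genes above both medians), then Crct1 and Lce1m (-1.34 and -0.92), the fused-type row (-1.96 over 4) and S100a10 (-0.34). Large and small differences thus stood side by side, with S100a3 between S100a16 (-0.33) and S100a4 (-0.12). Of 6 listed other genes of the cluster, 4 had a single-gene probe set. Kprp, a keratinocyte proline-rich gene, was at 885 and 350 (-1.32) and Prr9 at 342 and 107 (-1.65). Prr9 was measured through its wild-type signal alone. Smcp was at the floor on both arrays, and Lelp1 was under both medians (47.8 and 64.9).

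**Figure D3:**
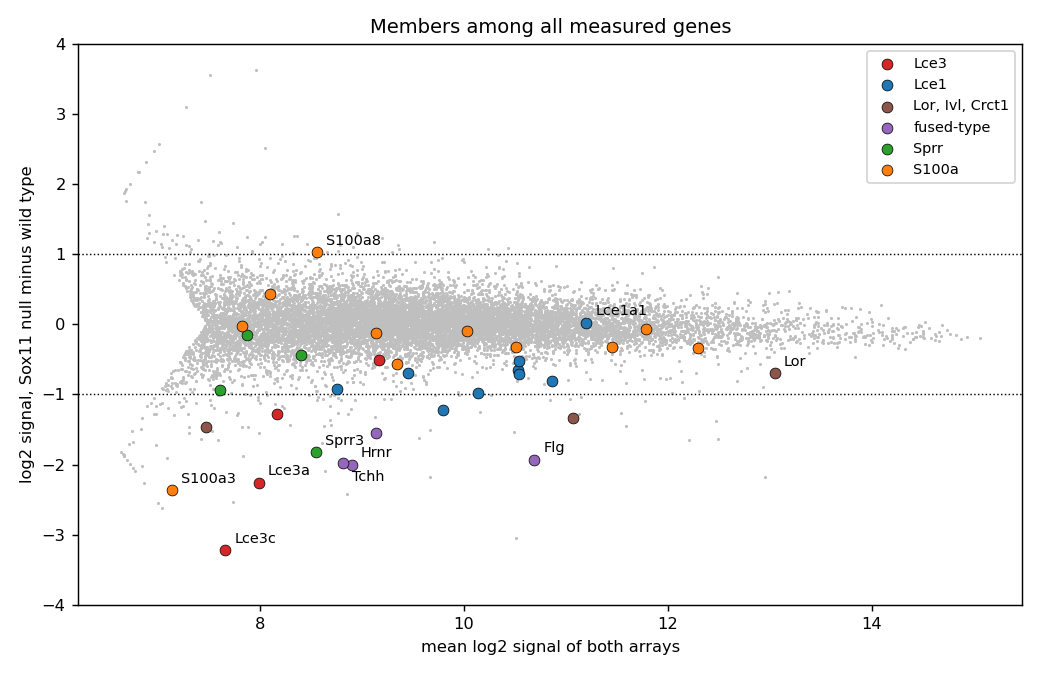
Log2 signal of Sox11 null minus wild type against the mean log2 signal of both arrays, for 12390 measured genes in grey and the 35 measured members in colour by subfamily. Dotted lines mark 2-fold, and 1 gene lies outside the axis. Most Lce genes and the measured fused-type genes lie in the lower part of the grey cloud or below it, at several levels. Lce1a1 lies at 0.026, and most S100a genes lie within the cloud.

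The members were spread over all levels of signal. Measured genes were cut into 3 equal groups by level. In the lowest group, the central 95% of all differences ran from -0.94 to 0.82, and 7 of 14 members lay below it and 1 above. Ivl, Lce3a, Lce3c and S100a3, among these 7, were above the median of the wild-type array alone, so this count leans towards lower values. In the middle group the central 95% ran from -0.49 to 0.57, with 6 of 8 members below. In the highest group it ran from -0.46 to 0.45, with 8 of 13 below. The bright members below it in the highest group included Flg, Crct1, Lor and Lce1a2. These ranges hold the differences of other genes between the same 2 libraries and do not replace replicates. Different probe sets of the same gene had a pooled SD of 0.39 in their log2 differences over 5155 genes. This SD is between probe sets on the same 2 arrays and does not stand for replicate error either.

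**Figure D4:**
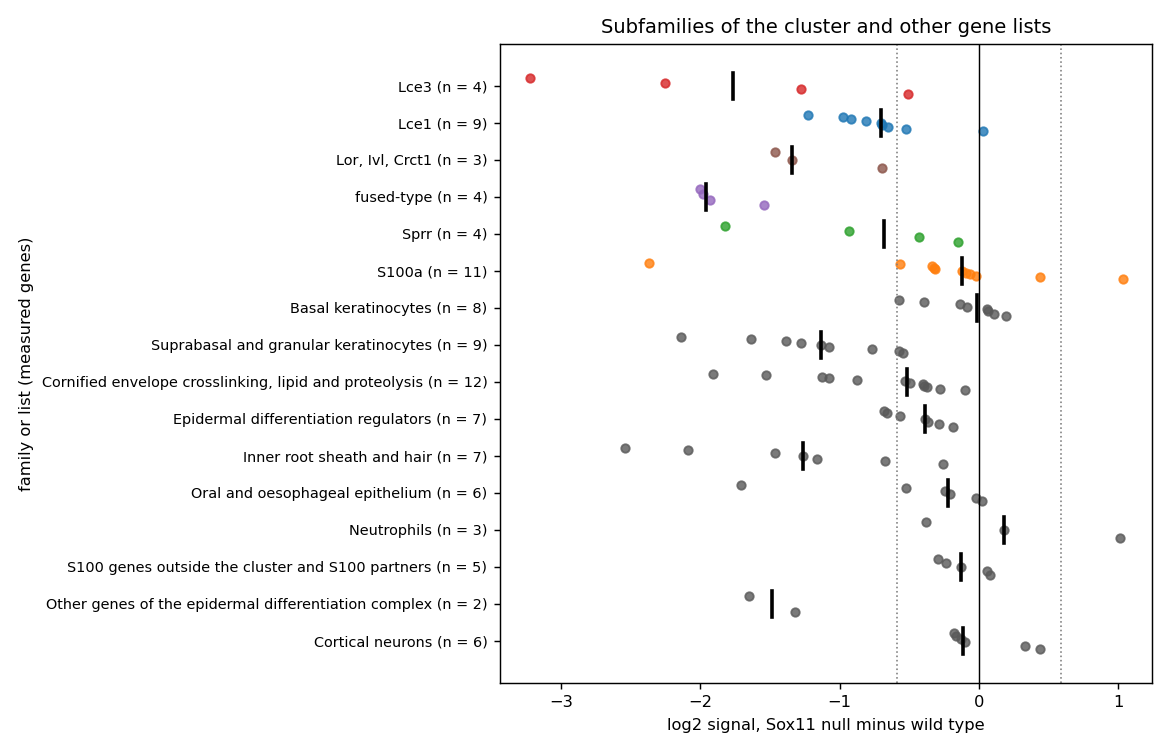
Log2 signal of Sox11 null minus wild type for the measured genes of 6 subfamilies (colour) and 10 other gene lists (grey), 1 point a gene, with the median as a black bar and dotted lines at 1.5-fold. The basal keratinocyte genes lie around 0, and the suprabasal and hair sheath genes lie lower, as the fused-type and Lce3 genes do.

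Other epithelial genes were set beside the cluster. Of 8 basal keratinocyte genes, all were measured and all were within 1.5-fold, with a median of -0.014. Their brightest, Krt5 (4461 and 4737, 0.11) and Krt15 (3421 and 3861, 0.19), are keratins of the dividing layer. Of the 8 genes 4 were below 0, among them the keratin gene Krt14 (3062 and 2303, -0.39) and Col17a1, a hemidesmosome gene (480 and 317, -0.58). Their summed signal was 14787 in the wild-type library and 14554 in the null one, 98.4% of wild type. Of 10 suprabasal and granular genes 9 were measured, all above the median of both arrays. Of these 9, 7 were at least 1.5-fold lower (all genes 3.24%), no gene was higher, and the median was -1.13. Their lowest were the desmosomal cadherin gene Dsc1 (1130 and 253, -2.14), the keratin gene Krt10 (10189 and 3229, -1.64) and its partner Krt1 (-1.38). Krt2 was at the floor on both arrays. The summed signal of this list was 33384 and 13550, 40.6% of wild type. The summed signal of the members other than S100a was 39820 and 21295, 53.5% of wild type, and that of the S100a members 84.2%.

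The genes that build and process the envelope had a median nearer to 0 than the 24 measured members other than S100a (-0.95). Of 18 listed genes 12 were measured, all 12 were below 0 and their median was -0.51. Among these, 5 were at least 1.5-fold lower, beside 3.24% of all measured genes. But 4 of these 5, Klk5, Cers3 and Tgm1 included, were above the median of the wild-type array alone, so this count leans towards lower values. The lowest were the desquamation protease gene Klk5 (264 and 69.3, -1.91), Asprv1, the filaggrin-processing protease (2447 and 835, -1.53), and Cers3, a ceramide synthase of the skin barrier (195 and 88.3, -1.12). The transglutaminase gene Tgm1 was at 197 and 106 (-0.87) and Tgm3 at 344 and 240 (-0.50). Of the regulators of epidermal differentiation, 7 of 10 were measured and all were below 0, with a median of -0.39. At least 1.5-fold lower were 2 of the 7 (all genes 3.24%). These were the vitamin D receptor gene Vdr (337 and 207, -0.68) and the grainyhead factor gene Grhl1 (441 and 275, -0.66). Klf4, a barrier transcription factor, was at 1865 and 1508 (-0.29). Among the 7 measured regulators, 2 were above the median of the wild-type array alone.

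Hair and oral genes were set beside Tchh, S100a3 and Sprr3. Of 11 inner root sheath and hair genes 10 had a single-gene probe set, 7 were measured and 6 of these were at least 1.5-fold lower, with a median of -1.27. Over all measured genes the share was 3.24%. Among the 7 genes, 3 (Krt27, Krt28 and Krt35) were above the median of the wild-type array alone, so this count leans towards lower values. Krt27 was at 310 in wild type and at the floor in the null library (at least 5.83-fold lower), Krt25 was at 820 and 190 (-2.09) and Krt35 at 376 and 134 (-1.47). Their summed signal was 3214 and 1279, and its part in the Tchh and S100a3 values was not tested. Of 7 oral and oesophageal genes 6 were measured and 5 were within 1.5-fold, with a median of -0.22. Krt76, a keratin of the palate and gum, was lower (190 and 57.3, -1.71), by a probe set of the _x_at type. It was measured through a wild-type signal just above the array median, and its null signal was near the floor. Krt4 and Krt13, a keratin pair of the inner mouth, were at 3635 and 2497 (-0.52) and at 2949 and 2955 (0.023). The summed signal of the oral list was 9744 and 8259, and its part in the Sprr3 value was not tested.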

How the data were processed

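Total RNA of 1 wild-type and 1 Sox11-null cortex was hybridised as biotinylated cRNA, per the labels' protocols. The deposited table holds 1 linear signal intensity per probe set and array, made with Affymetrix Expression Console, per the submitters' processing notes. For the summary algorithm and its version, the sources used here give no name. Trimming 2% at each end left both arrays with a mean of 500.002.

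Of 45101 probe sets, 64 controls were left out, 34945 named 1 gene, 932 several and 9160 none. A RefSeq table (GRCm38.p6) gave the current symbol of 34741 by gene number, and no member's symbol changed. Of several probe sets of a gene, the brightest by mean log2 signal was used. The null array was shifted by a median difference of -0.020 on the log2 scale, and signals under the 25th percentile were raised to it. Where 1 of the signals was at this floor, the fold is a lower bound. No test was run, since each genotype had 1 array, and members were counted at 1.5-fold and 2-fold. The number of arrays limits the precision, and no detection call was used.

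All members were described by the rule for named genes. For each other list the rule took the 3 largest differences past 1.5-fold in either direction, or else the 2 brightest genes. Further genes named from the lists (Krt2, Krt14, Col17a1, Tgm1, Tgm3, Klf4, Krt4, Krt13, Emx1, Fezf2, the remaining neutrophil and cluster genes) were chosen after their values were seen. The members, the 10 lists and the alternatives were chosen with earlier results of these data known, and the TAAAA letters after the sequences were read. The alternatives were no centring, quantile normalization, loess, other floors and filters, the mean over probe sets and leaving out _s_at and _x_at types. Identity of promoter windows came from global alignment. The scripts were tested on simulated data. Python 3.11.15, pandas 2.3.3 and statsmodels 0.14.6 were used.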

Additional observations from a re-analysis of the deposited data

How the results depend on the processing

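Each result was recomputed under 10 alternatives, 1 of them (a filter on the mean of both arrays) added after the data were seen. The members at least 1.5-fold lower numbered 15 to 21 (20 as reported) and those at least 2-fold lower 8 to 12 (12 as reported). The median of all members ran from -0.74 to -0.54, of the fused-type genes from -1.99 to -1.93, of Lce3 from -1.87 to -1.40, of Lce1 from -0.74 to -0.71 and of S100a from -0.32 to -0.11. The Sprr median ran from -1.82 to -0.42, with -0.42 without a filter (9 genes), -0.51 with a floor at the median signal and -1.82 with a filter at the 75th percentile, which left 1 gene. S100a8 was no longer counted with that filter or without _s_at and _x_at probe sets (0 members beyond 1.5-fold or 2-fold higher), since it was then left out, and with the mean over all probe sets 0 members were 2-fold higher. Of 330 member values under the alternatives, 325 stayed within the pooled probe set SD and none of the differences beyond 1.5-fold changed sign. Much of this count was fixed in advance. The changes of filter and the removal of the floor could not alter the difference of a measured member. For the 36 members with 1 probe set, the mean over probe sets altered the centring alone. The floor at the array median moved Lce3c, Lce3a, Ivl and S100a3, and the mean over probe sets moved Rptn, to the values given with them. No paired analysis was possible because each genotype has 1 array. Leaving out a replicate was not possible for the same reason. Signals near the array floor limit the sizes given for the dim members.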

Other observations

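Of the probe sets that name several genes, 4 touch these families and were left out of all counts. The probe set shared by S100a11 and its pseudogenes was bright, at 7218 (wild type) and 6602 (null). Those shared by the Sprr2a genes were at 296 and 248, at 51.8 and 37.7, and at 21.0 and 15.4.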
